A study of Mus musculus with 8 samples.

Results

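The nuclear genes for the subunits of respiratory complexes II to V were followed in RNA-seq counts of the soleus, a calf muscle rich in slow fibres. Genes were taken by symbol, as the protein-coding genes of GENCODE M21 named Sdha to Sdhd, Uqcr, Cyc1, Cycs, Cox4 to Cox8 or Atp5, tissue isoforms included. Of the 50 genes that this rule gives, 49 had a row among the 22880 genes of the count files, and 47 passed the filter on low counts, out of 14001 genes tested. These 49 were 4 genes of complex II, 10 of complex III and cytochrome c, 18 of complex IV and 17 of complex V. The symbols of Cox7a2l and Atp5s match the rule although neither encodes a subunit. Cox7b2 and Cox8c, both known from testis, had no count in any of the 8 mice and were not tested.

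Soleus RNA came from 4 control mice (Dnm2 +/+) and 4 Dnm2 +/K562E mice, all of them males of 2 months on a C57BL/6J background, with 1 library per mouse. The K562E allele is a germline point mutation knocked into the mouse Dnm2 locus, so that every tissue carries it together with the wild-type allele, and nothing in the design limits it to myofibres. The comparison asks how heterozygosity for this allele changes the transcripts of the muscle. Libraries held 33407430 to 48832814 counts, and the TMM factors used for scaling were 0.91 to 0.96 in controls but 1.04 to 1.10 in Dnm2 +/K562E mice. Total Dnm2 was 66.3 ± 4.74 normalized CPM (counts set to a common library size with TMM factors) in controls and 73.4 ± 2.43 in Dnm2 +/K562E mice (SD, n = 4 each), a log2 fold change of 0.15 (adjusted p = 0.0909, edgeR quasi-likelihood test). All p-values of that test are adjusted by the method of Benjamini and Hochberg (BH) over all genes, and SE is the standard error of a log2 value. Both alleles add to this count, so it does not check the genotype. Control 4 stood apart before any subunit gene was considered, with 3134 normalized CPM of the fast myosin heavy chain Myh4 against 163 to 426 in the other controls, a gene singled out after its values were seen. The typical soleus myosins were abundant in controls, at 6014 ± 263 normalized CPM for slow Myh7 and 9753 ± 611 for fast oxidative Myh2 (SD, n = 4 each).

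Complexes II to V sit in the inner mitochondrial membrane. Complex II (succinate dehydrogenase) passes electrons from succinate to ubiquinone, complex III hands them to cytochrome c, complex IV (cytochrome c oxidase) gives them to oxygen, and the proton gradient built on the way drives complex V, the ATP synthase. Complexes III to V join subunits of the mitochondrial genome with many subunits of the nucleus, and slow oxidative muscle is rich in all of them. Several subunits of complex IV exist in a heart and skeletal muscle form (Cox6a2, Cox7a1, Cox8b) and in a form made in most tissues (Cox6a1, Cox7a2, Cox8a).

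The promoter windows of 4 members are shown. Uqcrc1 had the lowest log2 fold change of all tested members and Cox8a the highest. Cox8b and Cox6a1, which were not at the ends of the range, are a muscle and a general form whose ratio to their partner is compared within each mouse. Each window holds 250 bases before and 50 after the RefSeq start site (GRCm38.p6), read 5′ to 3′ on the strand of the gene, and capitals mark matches, on either strand, to the motifs named after them.
Uqcrc1 (chr9:108936398-108936697, plus strand): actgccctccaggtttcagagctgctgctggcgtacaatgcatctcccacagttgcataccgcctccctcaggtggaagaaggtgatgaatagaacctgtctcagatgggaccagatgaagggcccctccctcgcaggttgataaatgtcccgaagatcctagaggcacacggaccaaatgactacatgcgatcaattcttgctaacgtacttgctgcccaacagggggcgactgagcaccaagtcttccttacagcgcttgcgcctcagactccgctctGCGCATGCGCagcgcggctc
Cox8b (chr7:140900397-140900696, minus strand): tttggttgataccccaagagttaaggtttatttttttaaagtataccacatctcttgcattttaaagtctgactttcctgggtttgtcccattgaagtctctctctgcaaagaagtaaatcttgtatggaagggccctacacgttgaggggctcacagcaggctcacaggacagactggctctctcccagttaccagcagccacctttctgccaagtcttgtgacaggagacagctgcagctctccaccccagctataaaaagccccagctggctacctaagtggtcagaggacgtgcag
Cox8a (chr19:7217567-7217866, minus strand): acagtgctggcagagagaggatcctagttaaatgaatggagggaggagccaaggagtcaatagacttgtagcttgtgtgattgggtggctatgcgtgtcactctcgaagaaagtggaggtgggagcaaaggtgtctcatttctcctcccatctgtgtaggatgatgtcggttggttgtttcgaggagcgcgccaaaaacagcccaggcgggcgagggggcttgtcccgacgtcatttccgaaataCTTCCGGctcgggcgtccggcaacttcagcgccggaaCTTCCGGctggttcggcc
Cox6a1 (chr5:115348909-115349208, minus strand): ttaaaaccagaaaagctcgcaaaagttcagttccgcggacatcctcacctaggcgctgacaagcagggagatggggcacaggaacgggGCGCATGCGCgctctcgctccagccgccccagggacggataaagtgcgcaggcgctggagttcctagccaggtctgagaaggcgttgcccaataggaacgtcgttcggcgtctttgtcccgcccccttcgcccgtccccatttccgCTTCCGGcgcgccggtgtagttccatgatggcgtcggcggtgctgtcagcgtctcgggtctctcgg

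The motifs searched were GCGCATGC (the core bound by NRF-1), AAGGTCA (ERR), CCGGAAG (the ETS family, with GABP) and AAGATGG (YY1), each on both strands, and the first of them overlaps its own reverse complement. A window was listed for 37 of the 49 members, with Atp5s, Cox7a2l and the uncounted Cox7b2 among them. For each member only the window nearest the annotated gene start was used. The share of all windows instead counts every listed window, alternative start sites included, without regard to expression in this muscle. GCGCATGC or its complement occurred in 8 of these 37 windows (21.6%, against 2.71% of all 32851 promoter windows). CCGGAAG was found in 11 (29.7% against 8.86%), AAGGTCA in 5 (13.5% against 4.72%) and AAGATGG in 3 (8.11% against 6.34%). None of the 4 motifs occurred in 19 of the windows, that of Cox8b among them. The shown windows of Uqcrc1 and Cox6a1 both hold the first motif, and those of Cox8a and Cox6a1 the ETS motif. A match describes these letters only.

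In Dnm2 +/K562E soleus, 29 of the 47 tested members had an adjusted p under 0.05 together with a log2 fold change of -0.58 or less (61.7%, against 7.85% of all tested genes called lower; edgeR quasi-likelihood test, BH-adjusted). With the adjusted p alone, 42 members were lower (89.4%, against 21.7% of all genes), and in these 42 every Dnm2 +/K562E mouse lay below every control, as it did for 20.5% of all genes. By the same test 0 members were higher at both thresholds (12.9% of all genes were called higher), at the adjusted p alone (22.2% of all genes) or at an unadjusted p under 0.05, and the exact test of edgeR and DESeq2 also called 0. The median log2 fold change of the members was -0.68, beside 0.0074 for all tested genes. In the mean, 46 of the 47 were lower, from -1.16 for Uqcrc1 to 0.0052 for Cox8a.

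Added up, the members held 24447, 26040, 26295 and 23073 normalized CPM in controls 1 to 4 and 14584, 14916, 15616 and 15919 in Dnm2 +/K562E mice 1 to 4. The highest mutant total was well under the lowest control total, and the mean fell from 24964 ± 1503 to 15259 ± 615 (SD, n = 4 each), to 61.1% of control. As a share of the deposited counts of each mouse, without TMM factors, the members took 2.21% to 2.40% in controls and 1.61% to 1.66% in Dnm2 +/K562E mice. By this share the mutant mean was 70.8% of control, a smaller drop than with TMM factors. The sum for complex II stood at 53.3% of the control mean, that for complex III at 57.0%, that for complex V at 61.6% and that for complex IV at 66.1%. Within a genotype the mice kept an order over the 42 lower members: control 4 was the lowest control for 37 of them and control 3 the highest for 26, while Dnm2 +/K562E mouse 1 was the lowest mutant for 26 and mouse 4 the highest for 26. In a whole muscle, fewer cells of a type and less RNA per cell cannot be told apart.

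**Figure D1:**
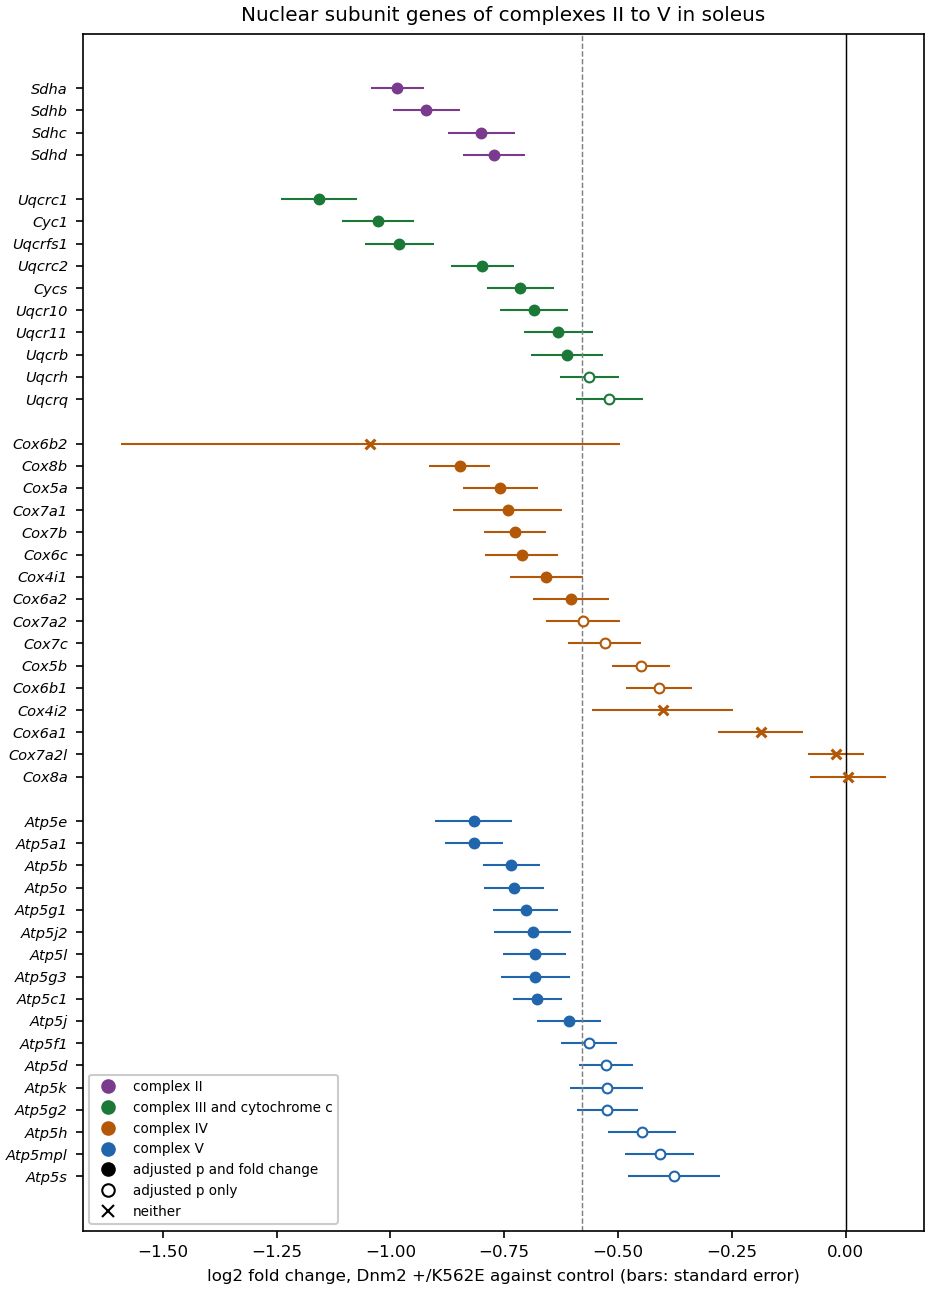
Log2 fold change of the 47 tested members (x axis; bars are the SE) by gene, grouped by complex from II at the top to V at the bottom; filled points passed both thresholds, open points the adjusted p only and crosses neither, and the dashed line marks -0.58. Nearly all points lie left of 0, with Uqcrc1 at -1.16 and Cox8a at 0.0052 as the ends, and Cox6b2 has an SE of 0.55.

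**Figure D2:**
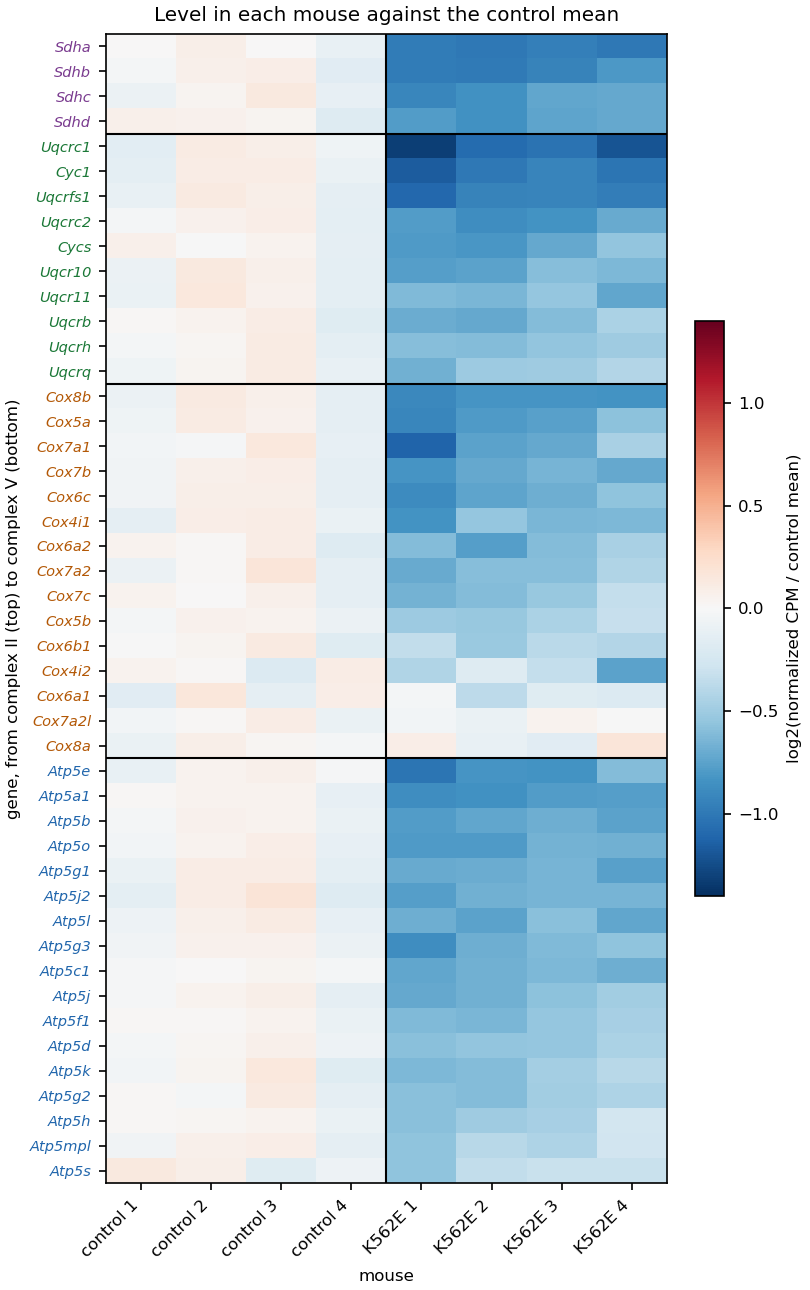
Log2 of the normalized CPM in each mouse over the control mean, for the tested members with a control mean of at least 1 CPM (rows, complex II to V) in the 4 control and 4 Dnm2 +/K562E mice (columns); blue is below and red above the control mean. The columns of Dnm2 +/K562E mice are blue except in mouse 3 for Cox7a2l and in mice 1 and 4 for Cox8a, and within them mouse 1 is the lowest for 26 of the 42 lower members.

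The scaling mattered for how many members reached the fold threshold. With library size alone, which moved the median of all genes to 0.22, 10 members passed both thresholds and the members' median was -0.47, while 41 were lower and 2 (Cox7a2l and Cox8a) higher at an adjusted p under 0.05 (quasi-likelihood test). Without control 4, the library with high Myh4, 33 members passed both thresholds. Leaving out Dnm2 +/K562E mouse 4 instead gave 33 as well, so this rise was not particular to control 4.

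All 4 genes of complex II fell, with a median log2 fold change of -0.86. Sdha encodes the flavoprotein that oxidizes succinate, and it had the smallest p-value of all members. Its normalized CPM were 949, 1003, 948 and 881 in controls 1 to 4 and 478, 473, 488 and 471 in Dnm2 +/K562E mice 1 to 4. The mutant mice lay close together and below all controls, and the log2 fold change was -0.99 (SE 0.06, adjusted p = 1.05e-06, edgeR quasi-likelihood test, BH-adjusted). Sdhb, the iron-sulfur subunit, followed at -0.92, and the membrane anchor Sdhc had -0.80. The other membrane anchor, Sdhd, had the smallest change of the complex and the highest level per kilobase of exon (278 CPM per kilobase in controls). Exon length here merges the exons of all annotated transcripts of a gene, so levels per kilobase rank genes only roughly. The normalized CPM of Sdhd were 359, 358, 351 and 302 in controls and 199.7, 190.2, 205 and 208 in Dnm2 +/K562E mice. Control 4 was set off below the other controls and still well above every mutant mouse, and the log2 fold change was -0.77 (SE 0.07, adjusted p = 9.92e-06, same test).

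In complex III with cytochrome c, 10 of 10 genes fell at the adjusted p and 8 of them also passed the fold threshold, with a median of -0.70. The lowest member of the whole group was Uqcrc1 (chromosome 9, 108936633 to 108949623, plus strand; promoter above), which encodes a core subunit of the matrix side. Its normalized CPM were 739, 885, 865 and 785 in controls and 327, 388, 399 and 355 in Dnm2 +/K562E mice. Mouse 1 was lowest among the mutants and control 1 among the controls, without overlap, and the log2 fold change was -1.16 (SE 0.08, adjusted p = 2.63e-06, same test). The subunits that carry electrons came next, Cyc1 with the haem of cytochrome c1 at -1.03 and Uqcrfs1, the Rieske iron-sulfur protein, at -0.98. Core subunit Uqcrc2 had -0.80 and Cycs, cytochrome c of somatic tissue, -0.71, although 29.2% of the 31-base stretches of Cycs transcripts also occur in other genes.

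The small subunits of complex III changed least. Uqcr11 had the highest level per kilobase (416 CPM per kilobase in controls), with normalized CPM of 249, 296, 279 and 242 in controls and 174, 171, 183 and 161 in Dnm2 +/K562E mice. The groups were well separated, and the log2 fold change was -0.63 (SE 0.08, adjusted p = 7.77e-05, edgeR quasi-likelihood test). Uqcr10 (-0.68) and Uqcrb (-0.61) also passed both thresholds, and Uqcrh (-0.56) passed the adjusted p only. Uqcrq, a small subunit bound near cytochrome b, ended the range, with normalized CPM of 361, 385, 409 and 349 in controls and 236, 264, 266 and 284 in Dnm2 +/K562E mice. Here too no mutant mouse reached a control, with a log2 fold change of -0.52 (SE 0.07, adjusted p = 0.000235, same test).

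Complex IV was the least uniform. Of its 16 tested members 7 passed both thresholds and 11 were lower at the adjusted p, their median log2 fold change being -0.59 and single values from -1.04 to 0.0052. The smallest p-value belonged to Cox8b (chromosome 7, 140898945 to 140900446, minus strand), the muscle form of subunit VIII. Its normalized CPM were 427, 494, 474 and 413 in controls and 242, 254, 254 and 253 in Dnm2 +/K562E mice. The mutant mice were nearly level and far below all controls, and the log2 fold change was -0.85 (SE 0.07, adjusted p = 4.91e-06, edgeR quasi-likelihood test). Cox6a2 (chromosome 7, 128205435 to 128206387, minus strand), the muscle form of subunit VIa, had the highest level per kilobase of all members, 2073 CPM per kilobase in controls and 1364 in Dnm2 +/K562E mice. In normalized CPM it was 1455, 1431, 1511 and 1242 in controls and 926, 828, 926 and 1030.3 in Dnm2 +/K562E mice. Mutant mouse 4 came nearest to control 4 without reaching it, and the log2 fold change of -0.60 (SE 0.08, adjusted p = 0.000207, same test) was close to the fold threshold. The exons of Cox6a2 overlap Itgad on the other strand.

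Cox7a1, the muscle form of subunit VIIa, was at 257, 261, 292 and 244 normalized CPM in controls and at 121, 156, 160.2 and 192 in Dnm2 +/K562E mice. The mutant values were widely spread, with mouse 1 low and mouse 4 high but none within the controls, and its log2 fold change was -0.74 (SE 0.12, adjusted p = 0.000553, edgeR quasi-likelihood test). Cox4i1, the common form of subunit IV, had 542, 630.5, 632 and 554 normalized CPM in controls and 331, 404, 379.8 and 381 in Dnm2 +/K562E mice. All mutant mice were below all controls, at a log2 fold change of -0.66 (SE 0.08, adjusted p = 8.79e-05, same test). Cox7b, on the X chromosome, had 498, 544, 553 and 473 normalized CPM in controls and 291, 315, 329 and 314 in Dnm2 +/K562E mice. These groups were clearly apart as well, at -0.73 (SE 0.07, adjusted p = 1.53e-05, same test). The remaining calls were Cox5a (-0.76) and Cox6c (-0.71), whereas Cox7c (-0.53) and Cox5b (-0.45) were lower at the adjusted p only.

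Cox7a2, the general form of subunit VIIa, lay just short of the fold threshold. It had 161, 174, 193 and 157 normalized CPM in controls and 105, 113, 114 and 128 in Dnm2 +/K562E mice. No mutant mouse overlapped a control, and the log2 fold change was -0.577 against the threshold of -0.58 (SE 0.08, adjusted p = 0.000231, edgeR quasi-likelihood test). Cox6b1, the general form of subunit VIb, followed with 455, 471, 501 and 407 normalized CPM in controls and 362, 320.3, 353 and 345 in Dnm2 +/K562E mice. Control 4 and mutant mouse 1 were the nearest values across the groups, which did not overlap, and the log2 fold change was -0.41 (SE 0.07, adjusted p = 0.00107, same test).

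The 5 members without an adjusted p under 0.05 all belonged to complex IV by symbol. Cox8a (chromosome 19, 7215153 to 7217616, minus strand), the general form of subunit VIII, had 55.4, 62.7, 60.4 and 58.0 normalized CPM in controls and 63.1, 55.0, 52.8 and 66.6 in Dnm2 +/K562E mice. The mutant mice lay on both sides of the controls, with a log2 fold change of 0.0052 (SE 0.08, adjusted p = 0.965, edgeR quasi-likelihood test), which was 0.22 with library size alone (adjusted p = 0.0434, same test) and -0.00150 without the genes of the mitochondrial genome. Cox6a1 (chromosome 5, 115345642 to 115348981, minus strand), the general form of subunit VIa, had 40.3, 50.2, 41.2 and 47.7 normalized CPM in controls and 44.0, 34.7, 39.9 and 39.1 in Dnm2 +/K562E mice. Mutant mouse 1 lay among the controls, and the log2 fold change of -0.19 (SE 0.09, adjusted p = 0.13, same test) turned to 0.024 with library size alone. Cox7a2l, a factor that joins complexes III and IV into supercomplexes and of which C57BL/6J mice carry a shortened form, had 138, 144, 153 and 133 normalized CPM in controls and 139, 133, 147 and 141 in Dnm2 +/K562E mice. The groups overlapped throughout, at -0.021 (SE 0.06, adjusted p = 0.803, same test), and library size alone gave 0.19 (adjusted p = 0.0131, same test).

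The other 2 were low in this muscle. Cox4i2, an oxygen-responsive form of subunit IV best known from lung, had 4.74, 4.63, 4.03 and 4.95 normalized CPM in controls and 3.42, 4.04, 3.65 and 2.73 in Dnm2 +/K562E mice. Mutant mouse 2 just exceeded control 3, and the log2 fold change was -0.40 (SE 0.15, adjusted p = 0.0545, edgeR quasi-likelihood test). Without control 3 it was -0.46 (adjusted p = 0.0468, same test) and without mutant mouse 2 it was -0.49 (adjusted p = 0.0397, same test). Cox6b2, the testis form of subunit VIb, had 1.2, 0.772, 0.224 and 0.648 normalized CPM in controls and 0.272, 0.465, 0.501 and 0.108 in Dnm2 +/K562E mice, with 154 counts over the 8 libraries. The groups overlapped. Its log2 fold change of -1.04 was the lowest in complex IV but carried an SE of 0.55 (adjusted p = 0.146, same test), so that a change was not detectable at this depth. Single mice decided the value, which ran from -1.36 without control 3, the lowest control (adjusted p = 0.0434, same test), to -0.66 without control 1, the highest (adjusted p = 0.370, same test), and was -0.76 without mutant mouse 4 (adjusted p = 0.289, same test).

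All 17 members named for complex V fell at the adjusted p, and 10 also passed the fold threshold, with a median log2 fold change of -0.68. By part of the enzyme, 4 of the 5 genes of the catalytic F1 head and its shaft passed both thresholds (median -0.73), as did 2 of 3 genes of the membrane c-ring (-0.68), 2 of 4 of the peripheral stalk (-0.59) and 2 of 4 small membrane subunits (-0.60). Atp5a1, which encodes the alpha subunit of the head, had the highest level per kilobase of complex V, 845 CPM per kilobase in controls. Its normalized CPM were 2678, 2747, 2734 and 2439 in controls and 1454, 1468, 1543 and 1554 in Dnm2 +/K562E mice. Control 4 was the lowest control, and all mutant mice were far below it, at a log2 fold change of -0.82 (SE 0.06, adjusted p = 4.46e-06, edgeR quasi-likelihood test). Atp5b, the catalytic beta subunit, had the highest count of all members and a log2 fold change of -0.73.

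The gamma subunit Atp5c1, which forms the rotating shaft, had the smallest p-value of complex V. Its normalized CPM were 845, 861, 876 and 836 in controls and 516, 536, 551 and 533 in Dnm2 +/K562E mice. Both groups were tight, and the log2 fold change was -0.68 (SE 0.05, adjusted p = 4.41e-06, edgeR quasi-likelihood test). Atp5e, the small epsilon subunit of the shaft, had the lowest fold change of the complex. It was at 170.0, 189, 192 and 180.5 normalized CPM in controls and at 89.9, 103, 102 and 120.0 in Dnm2 +/K562E mice. Mutant mouse 4 was the highest of its group and still below every control, at -0.82 (SE 0.08, adjusted p = 2.77e-05, same test). Atp5d, the delta subunit of the shaft, was the only F1 head gene short of the fold threshold (-0.53).

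In the peripheral stalk, which holds the head still against the rotor, Atp5o (-0.73) and Atp5j (-0.61) passed both thresholds and Atp5f1 (-0.56) and Atp5h (-0.45) the adjusted p only. Among the small membrane subunits Atp5j2 (-0.69) and Atp5l (-0.68) passed both, and Atp5k (-0.52) and Atp5mpl (-0.41) the adjusted p only. Atp5s, the coupling factor B homologue that is not counted as a subunit, marked the other end, with 13.3, 12.9, 10.8 and 11.6 normalized CPM in controls and 8.26, 9.58, 9.80 and 9.84 in Dnm2 +/K562E mice. The groups came close without touching, at a log2 fold change of -0.38 (SE 0.10, adjusted p = 0.0111, edgeR quasi-likelihood test), and with library size alone the value was -0.17 (adjusted p = 0.182, same test).

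The 3 genes of the c-ring encode the same mature protein behind different import sequences. Atp5g1 had 739, 851, 850.1 and 720.5 normalized CPM in controls and 483, 487, 504 and 467 in Dnm2 +/K562E mice. Its mutant values lay close together below all controls, at a log2 fold change of -0.70 (SE 0.07, adjusted p = 2.43e-05, edgeR quasi-likelihood test). Atp5g3 had 498, 539.5, 539 and 488 normalized CPM in controls and 282, 320.3, 336 and 349 in Dnm2 +/K562E mice. Again the groups did not overlap, at -0.68 (SE 0.08, adjusted p = 4.24e-05, same test). Atp5g2 had 177, 171, 190.3 and 160.2 normalized CPM in controls and 117, 115, 125 and 129 in Dnm2 +/K562E mice, also without overlap. It fell by 0.52 on the log2 scale (SE 0.07, adjusted p = 0.000133, same test), while 40.2% of its 31-base stretches recur in other genes.

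The ratio of paired isoform genes was then compared within each mouse, which cancels the library scaling. Of 8 pairs tested, 0 had an adjusted p under 0.05 and 2 had an unadjusted p of 0.0286, the smallest that an exact two-sided permutation test of 4 against 4 mice can give. With this floor no pair could pass the adjustment over 8 pairs on its own, however clear its shift. The count of 0 is therefore no sign of equal ratios, and the c-ring ratios share genes. The clearest shift was in Cox8b over Cox8a, with log2 ratios of 2.94, 2.98, 2.97 and 2.83 in controls and 1.94, 2.21, 2.27 and 1.93 in Dnm2 +/K562E mice. No mutant mouse came near the controls, and the mean ratios differed by -0.85 on the log2 scale (exact permutation p = 0.0286, adjusted p = 0.0914 over the 8 pairs). Per kilobase of exon, Cox8b made up 92.9% ± 0.317 of the 2 transcripts in controls and 87.9% ± 1.30 in Dnm2 +/K562E mice (SD, n = 4 each).

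Cox6a2 over Cox6a1 had log2 ratios of 5.17, 4.83, 5.19 and 4.70 in controls and 4.39, 4.57, 4.54 and 4.72 in Dnm2 +/K562E mice. Only control 4 and mutant mouse 4 crossed, and the difference was -0.42 (exact permutation p = 0.0571, adjusted p = 0.0914). For Cox7a1 over Cox7a2 the ratios were 0.67, 0.58, 0.59 and 0.63 in controls and 0.21, 0.46, 0.50 and 0.59 in Dnm2 +/K562E mice. Mutant mouse 1 made up much of this difference of -0.18 (exact permutation p = 0.0571, adjusted p = 0.0914), which was -0.11 without that mouse. The ratio of Atp5g2 to Atp5g3 was -1.49, -1.66, -1.50 and -1.61 in controls and -1.27, -1.48, -1.42 and -1.43 in Dnm2 +/K562E mice, on the log2 scale. Here every mutant mouse was above every control, by a small mean of 0.16 (exact permutation p = 0.0286, adjusted p = 0.0914).

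The remaining pairs overlapped between the genotypes. Atp5g1 over Atp5g2 differed by -0.18 (exact permutation p = 0.0571, adjusted p = 0.0914) and Atp5g1 over Atp5g3 by -0.015 (exact permutation p = 0.83, adjusted p = 0.83). The low pairs Cox4i2 over Cox4i1 (0.25, exact permutation p = 0.2, adjusted p = 0.267) and Cox6b2 over Cox6b1 (-0.54, exact permutation p = 0.343, adjusted p = 0.392) were wide, the latter with an SD of 0.996 in controls. Without single mice, Cox4i2 over Cox4i1 ran from 0.15 (without control 3) to 0.36 (without mutant mouse 4), and Cox6b2 over Cox6b1 from -1.01 (without control 3) to -0.16 (without mutant mouse 4), with -0.23 without control 1. A ratio shows unequal change of its 2 genes and not that either was constant.

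**Figure D3:**
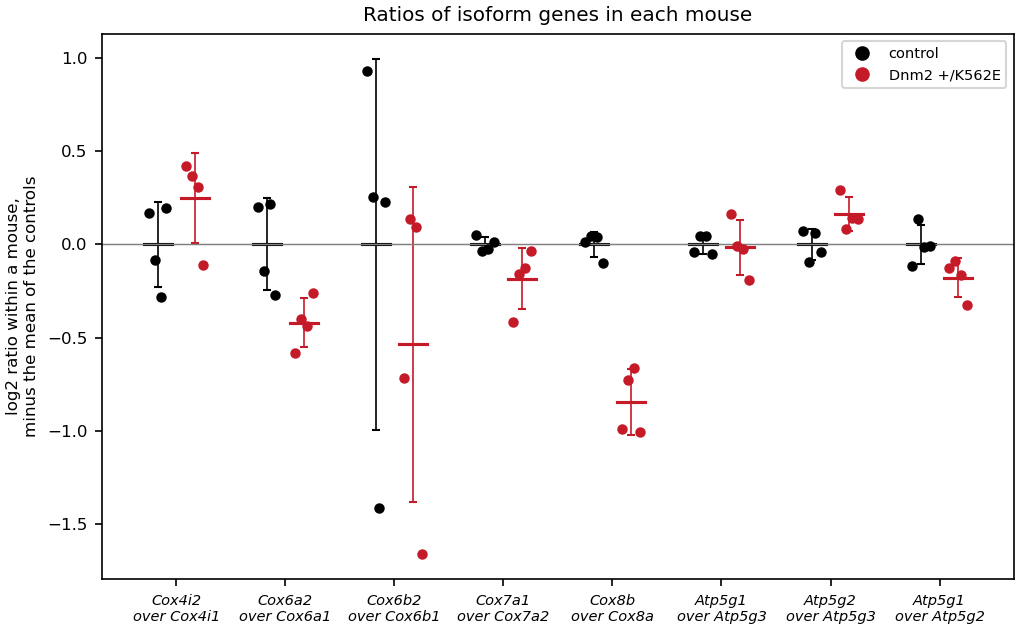
Log2 ratio of each isoform pair in each mouse minus the mean ratio of the controls (y axis) for the 8 pairs (x axis), with black points for control and red points for Dnm2 +/K562E mice, horizontal lines for group means and bars for the SD (n = 4). Cox8b over Cox8a is the pair whose mutant points lie farthest below the controls without overlap, at -0.85, while Cox6b2 over Cox6b1 scatters widely in both groups.

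Across the 45 tested subunits, the log2 fold change had no visible relation to the control level per kilobase (Pearson r = -0.015, Spearman rho = -0.13). It was lower in genes with a longer merged exon length (r = -0.39, rho = -0.38 against the log2 of that length). These are correlations across genes that share the same 8 libraries, given as a description. Correcting each library for gene length and GC content left 25 members past both thresholds.

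Other genes of the same machinery were read beside the members. Of all tested genes, 21.7% were lower at the adjusted p and 7.85% were called lower at both thresholds. All 38 nuclear genes named as subunits of complex I, where electrons from NADH enter, were lower at the adjusted p (median log2 fold change -0.64, 26 past both thresholds). The smallest p-value was that of Ndufs1, its largest iron-sulfur subunit, with 487, 512, 534 and 479 normalized CPM in controls and 272, 258, 272 and 276 in Dnm2 +/K562E mice. The groups lay far apart, at a log2 fold change of -0.90 (SE 0.06, adjusted p = 1.39e-06, edgeR quasi-likelihood test).

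Of the 6 subunits of complexes III to V that the mitochondrial genome encodes, 5 were lower at the adjusted p and 2 passed both thresholds (median -0.53). The shares of all genes were 21.7% and 7.85%. By p-value mt-Co3, a core subunit of complex IV, came first, with 179, 324, 251 and 210.3 normalized CPM in controls and 121, 155, 130.3 and 138 in Dnm2 +/K562E mice. Controls were widely spread but all above the mutants, at -0.82 (SE 0.16, adjusted p = 0.00163, edgeR quasi-likelihood test), while mt-Cytb had -0.24 (adjusted p = 0.097, same test). Control means differed widely, at 113204 normalized CPM for mt-Co1 and 39433 for mt-Cytb. They were only 241 for mt-Co3, 183 for mt-Co2, 292 for mt-Atp6 and 104 for mt-Atp8. Both genes past both thresholds, mt-Co3 and mt-Atp6 (-0.64), were of the low kind, while abundant mt-Co1 had -0.33. The median of the list lay between mt-Co2 and mt-Atp8, which were also of the low kind. Why the levels differ so much was not tested. Scaled by library size alone, 2 of these 6 were lower at the adjusted p. Among 5 partners of complexes IV and V that the symbol rule misses, Higd2a (-0.68), Usmg5 (-0.64), Ndufa4 (-0.63, counted with complex I as well) and Higd1a (-0.40) were lower. Higd2a, with the smallest p-value of these, had 70.4, 77.1, 72.2 and 76.0 normalized CPM in controls and 42.4, 45.4, 47.2 and 49.7 in Dnm2 +/K562E mice, without overlap (SE 0.07, adjusted p = 1.85e-05, same test). Atpif1, the inhibitor of the ATP synthase, was higher in all 4 Dnm2 +/K562E mice, with 16.4, 15.4, 15.9 and 16.8 normalized CPM in controls and 23.5, 24.5, 24.4 and 24.0 in the mutants. Both groups were narrow, and its log2 fold change of 0.58 (SE 0.06, adjusted p = 4.25e-05, same test) was just short of the fold threshold.

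Of 36 assembly factors of complexes II to V, 18 were lower at the adjusted p, 7 passed both thresholds and 0 were higher by this test. The shares of all genes were 21.7%, 7.85% and, higher at the adjusted p, 22.2%. The median log2 fold change of the factors was -0.22, which was -0.012 with library size alone. The smallest p-value was that of Fmc1, an assembly factor of the F1 head, at 34.9, 37.5, 36.8 and 29.5 normalized CPM in controls and 11.4, 14.6, 14.3 and 14.6 in Dnm2 +/K562E mice. Mutant levels were well below every control, with a log2 fold change of -1.33 (SE 0.10, adjusted p = 4.41e-06, edgeR quasi-likelihood test), lower than that of any tested member. In the mean 30 of the 36 were lower, and of the rest Surf1, an assembly factor of complex IV, had the smallest p-value, with 23.6, 20.9, 21.1 and 19.9 normalized CPM in controls and 22.3, 23.1, 22.8 and 24.7 in Dnm2 +/K562E mice. Control 1 lay among the mutants, and the log2 fold change of 0.12 (SE 0.07, adjusted p = 0.227, same test) did not pass the test. Whether assembly factors and subunits differ in their change was not tested.

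All 12 mitochondrial genes outside the chain were lower at the adjusted p, at a median of -0.55, and the outer membrane channels Vdac1, Vdac2 and Vdac3 had -0.68, -0.44 and -0.71. The smallest p-value was that of Cs, the citrate synthase gene, with 1003, 1028, 995 and 953 normalized CPM in controls and 533, 557, 569 and 561 in Dnm2 +/K562E mice. Both groups were narrow and far apart, at a log2 fold change of -0.84 (SE 0.06, adjusted p = 1.64e-06, edgeR quasi-likelihood test). Of 8 transcriptional regulators of such genes 4 were lower at the adjusted p, beside 21.7% of all genes. They were the nuclear receptor gene Esrra (-0.70), the coactivator gene Ppargc1a (-1.63), Nrf1 (-0.41) and Esrrg (-0.37). Esrra had the smallest p-value, with 151, 150.4, 144 and 120.4 normalized CPM in controls and 83.7, 87.1, 85.5 and 91.2 in Dnm2 +/K562E mice. Control 4 was the lowest control and above every mutant mouse (SE 0.08, adjusted p = 3.92e-05, same test). Gabpa (-0.08), Tfam (-0.16), Yy1 (-0.036) and Ppargc1b (-0.37) did not pass the test. With library size alone 2 of the 8 were lower.

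**Figure D4:**
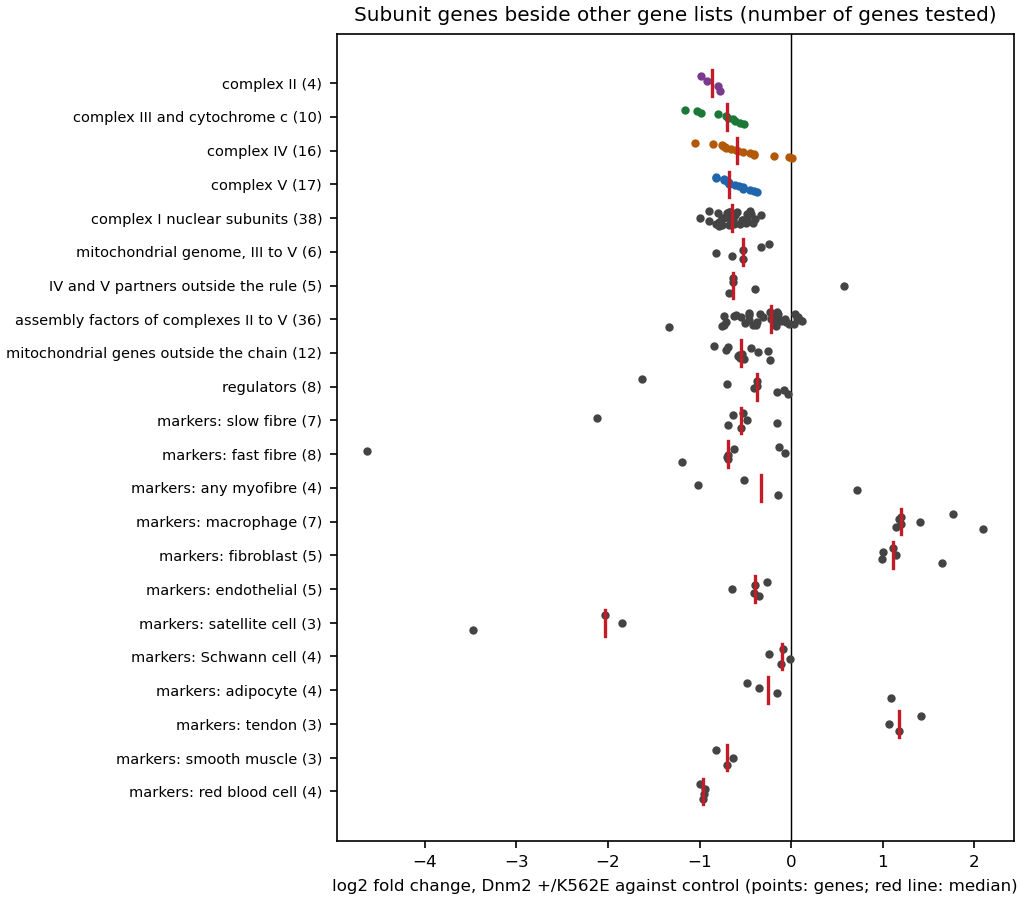
Log2 fold change of single genes (points, x axis) in the 4 groups of members and in the other lists (y axis, number of genes tested in brackets), with the median of each list as a red line. The medians of complexes II to V lie at -0.86, -0.70, -0.59 and -0.68, that of complex I at -0.64 and that of the assembly factors at -0.22, while macrophage, fibroblast and tendon markers lie to the right of 0.

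Markers of several cell types moved with the genotype, where 21.7% of all tested genes were lower and 22.2% higher at the adjusted p. All 7 macrophage markers were higher, with a summed level of 72.8 to 135 normalized CPM in controls and 179 to 296 in Dnm2 +/K562E mice, and so were all 5 fibroblast markers (1810 to 2741 against 3886 to 5034) and all 3 tendon markers (70.1 to 111 against 199.9 to 251). Of the myofibre genes, 6 of 7 slow markers were lower at the adjusted p (sum 19556 to 23042 against 11340 to 14342, Tnni1 not past the test) and 6 of 8 fast markers (41818 to 43262 against 25583 to 30525, Myh1 and Mylpf not past it). Among 4 genes of any myofibre, Acta1 (-0.52) and Ckm (-1.02) were lower, Des was higher (0.72) and Mb (-0.14) did not pass the test. Lower too were all 5 endothelial markers (862 to 900.2 against 616 to 705), 3 satellite cell markers (10.7 to 15.1 against 1.78 to 3.65), 3 smooth muscle markers (293 to 416 against 202 to 232) and 4 globin genes of red blood cells (514 to 878 against 242 to 506). Of 4 Schwann cell markers 1 was lower (sum 177 to 196 against 149 to 183), and of 4 tested adipocyte markers 1 was higher (32.0 to 157 against 55.0 to 101.5). Both counts are near the shares of all genes. The brown fat marker Ucp1 was at 0 in all mice. Within controls, control 4, the lowest for most of the lower members, was the highest for every macrophage and every fibroblast marker. Among Dnm2 +/K562E mice, mouse 1 was the highest for every macrophage marker but not for every fibroblast marker. Mouse 4 was the lowest of these mice for some markers of each list. The part of the marker shifts in the lower counts of the members was not tested.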

How the data were processed

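Soleus RNA of 4 control and 4 Dnm2 +/K562E mice was sequenced, with 33407430 to 48832814 counts per mouse, and members under 5 CPM rest on few of them. The authors deposited counts per gene and mouse, without normalization. Per the labels and the methods of the study, reads were trimmed (Trimmomatic 0.33), aligned (STAR 2.5.1b, GRCm38) and counted per gene (featureCounts). The settings count a multi-mapping read at its primary alignment and a read over several genes for each. They also ask for a mapping quality of at least 10, and how many multi-mapping reads passed that limit is not known here. The strand setting is not given in the sources used here, and the kit is named as stranded total RNA in the labels and as poly A in the methods. Of the members 9 overlap a gene on the other strand, and 15 share more than 10% of the 31-base stretches of their transcripts with other genes, so their counts are less certain.

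Groups came from the labels. Gene IDs were matched to GENCODE M21, of the same build (22647 of 22880). Counts were filtered with filterByExpr (minimum count 10, minimum total 15), scaled by TMM and tested with the quasi-likelihood F-test of edgeR 4.0.16 in R 4.3.3, with Benjamini-Hochberg adjustment over all 14001 genes. A call needs, as in the study, a log2 fold change beyond 0.58 in either direction besides an adjusted p under 0.05. Isoform ratios used log2 CPM with a prior count of 2 and exact two-sided permutation tests (scipy 1.17.1). Standard errors follow from the F statistic. Promoter windows are from RefSeq (GRCm38.p6). The members and lists were chosen with earlier results of these data known. Named with values in each mouse are, per complex, the member with the smallest p, the lowest and highest log2 fold change and the highest level per kilobase, further every isoform pair gene and every member higher or without an adjusted p under 0.05, and of the other mitochondrial and regulator lists the genes with the smallest p in each direction, while cell type markers are given by counts and sums. Genes given by their fold change alone, Myh4, Myh7 and Myh2 are named besides these. Alternatives tried were DESeq2 1.42.0, the exact test of edgeR, scaling by median-ratio factors or by library size alone, no genes of the mitochondrial genome, other count filters, replicate blocks, a correction for length and GC content (mgcv 1.9.3), a prior count of 0.5 and leaving out each mouse. The fitting was tested on simulated data. The mice are separate animals, and any 2 mice of a genotype differed by more than sampling noise.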

Additional observations from a re-analysis of the deposited data

Results flagged for a closer look

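In 110 groups of 4 mice (each tested member and isoform ratio in each genotype), 3 had a lowest mouse set apart from the others by Dixon's ratio, where chance alone gives about 1 in 20. Sdhd in control 4 was 302 normalized CPM, with the other controls at 351 to 359. Cox8b in Dnm2 +/K562E mouse 1 was 242, with the other mutant mice at 253 to 254. Atp5s in Dnm2 +/K562E mouse 1 was 8.26, with the others at 9.58 to 9.84.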

How the results depend on the processing

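Members past both thresholds numbered 29, and 25 to 30 under the exact test, DESeq2, median-ratio factors, no genes of the mitochondrial genome, both other filters and the length and GC correction, against 10 with library size alone and 42 without the fold threshold. Leaving out each mouse gave 27 to 33, and 3 of the 29 calls were lost without 1 of the mice: Cox6a2 without control 3 or Dnm2 +/K562E mouse 2, Uqcrb without that mouse 2 and Atp5j without Dnm2 +/K562E mouse 1. By the adjusted p alone 41 to 44 members were lower under all of these. The members' median of -0.68 ran from -0.72 to -0.64 without single mice and was -0.47 with library size alone, where complexes II to V had -0.65, -0.49, -0.38 and -0.47. The length and GC correction moved complex IV to -0.49. With library size alone 11 assembly factors, 2 regulators and 2 mitochondrial genome subunits were lower at the adjusted p, and the medians of complex I and of the mitochondrial genes outside the chain were -0.43 and -0.34.

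Directions turned only in genes near 0. With library size alone Cox6a1 was 0.024 and Cox7a2l 0.19, with the length and GC correction Cox7a2l was 0.016, and without the genes of the mitochondrial genome Cox8a was -0.00150. Without single mice, Cox7a2l ran from -0.058 to 0.015, Cox8a from -0.055 to 0.057 and the ratio of Atp5g1 to Atp5g3 from -0.075 to 0.044. The adjusted p of Cox4i2 was 0.0422 by the exact test and 0.0364 by DESeq2, and over all alternatives it ran from 0.0364 to 0.366. The cause of these changes was not tested.

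With the mouse number as a replicate block, 29 members passed both thresholds by either numbering and no call changed. The numbers name different animals, whose deviations from the group means correlated at -0.21, -0.085, 0.0095 and -0.17 by the titles and at 0.18, -0.10, -0.031 and -0.17 by the descriptions. Depth limits most the members under 5 normalized CPM, Cox6b2 and Cox4i2.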
